A study of Rattus norvegicus with 8 samples.

Results

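The mitochondrial carrier family Slc25 was examined in the liver of adult male Sprague-Dawley rats. Members were the genes whose RefSeq symbol begins with Slc25a, without the carnitine carrier Slc25a20, each read through its probe of highest mean Cy5 signal. This gave 37 carriers among 15154 genes named on the array. The livers came from the offspring of dams given corn oil alone (control) or a mixture that activates the aryl hydrocarbon receptor (AhR) in that oil, and were taken at 78 to 86 days of age. The mixture held non-ortho polychlorinated biphenyls, dioxins and furans, with a daily dose, expressed as dioxin equivalents (TEQ), of 1.8 ng/kg. Dosing ran from gestation day 0 to postnatal day 20, and the pups of these groups stayed with their birth mothers. Each group had 4 arrays, and each array held RNA pooled from 2 rats. The labels do not give litters, so p-values measure the spread between pools.

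Carriers of this family sit in the inner mitochondrial membrane and exchange nucleotides, phosphate, carboxylates, amino acids and cofactors between cytosol and matrix. In liver they serve ATP export, the urea cycle, gluconeogenesis and the citrate supply for lipid synthesis. Most members carry a substrate of their own, and close paralogues often differ in the tissue that uses them. Slc25a30, first described as a kidney mitochondrial carrier and related to the uncoupling proteins, is the member whose arrays lay farthest apart.

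On every array the liver RNA was in the Cy5 channel. The Cy3 channel held a common reference, labelled as RNA of 14 rat cell lines, and dyes were not swapped. Values below are log2 of Cy5 over Cy3 for the same probe unless another scale is named. The array median of the Cy5 signal ran from 116 to 151 intensity units over a background of 71 to 76. All 10 hepatocyte markers examined were well above background in Cy5. The log2 signal of the albumin gene Alb averaged 17.21 in the liver channel and 17.27 in the reference, so the reference channel also carried a liver transcript at a high level. Ratios were normalized within each array, so a value near 0 marks the usual ratio of that array at that brightness. It does not say that both channels were equally bright. Slc25a46, with a mean ratio of 0.0071, had a median signal of 3097 units in Cy5 and 2122 in Cy3.

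Of the 37 carriers, 30 had Cy5 well above background on all 8 arrays and were tested. The other 7 could not be measured. Slc25a15, the ornithine carrier of the urea cycle, the glutamate carrier Slc25a18, Slc25a41 of the ATP-Mg/phosphate group, Slc25a53 and Slc25a54 did not reach that mark on a single array. Slc25a2, a second ornithine carrier, and Slc25a27, an uncoupling-related protein, each reached it on 1 array. For Slc25a15 the Cy5 signal lay between 72 and 89 units. Slc25a12 and Slc25a13, the aspartate-glutamate carriers, and Slc25a36 were among 15 protein-coding genes of the family with no matched probe and are not analysed here.

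**Figure D1:**
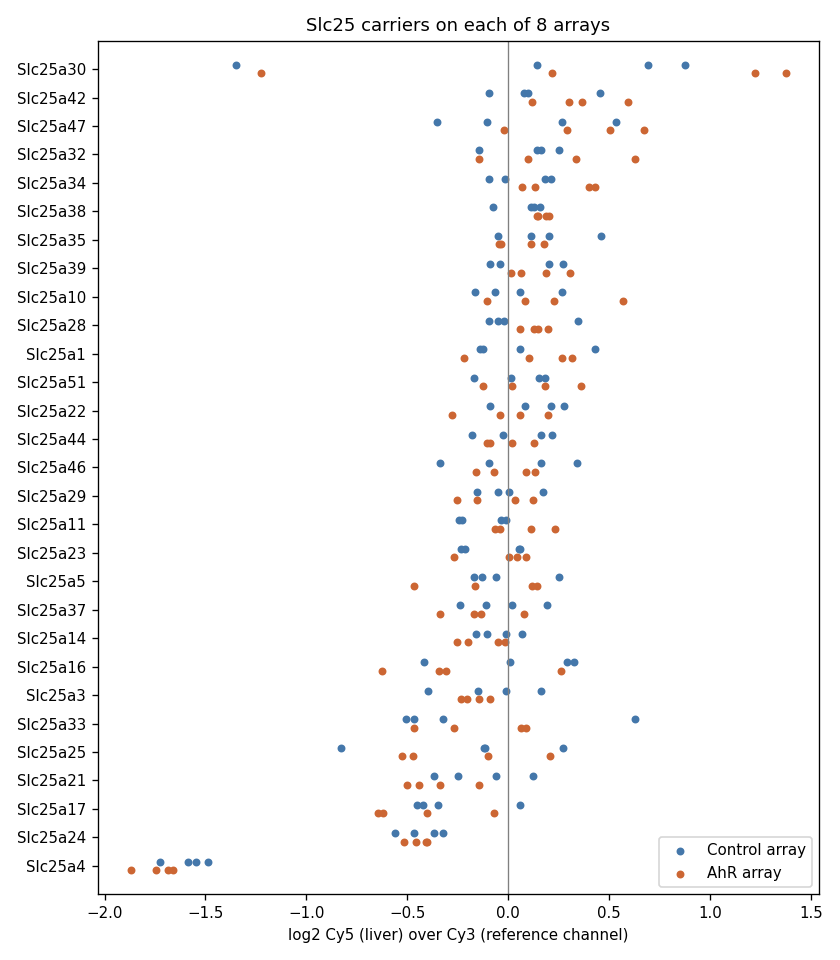
Log2 Cy5 over Cy3 (horizontal axis) of 29 of the 30 measured carriers (rows, ordered by mean), 1 point per array, 4 control and 4 AhR arrays. Slc25a30 spans -1.35 to 1.38, Slc25a4 lies between -1.87 and -1.49, and the other carriers cluster near 0.

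Normalization centres each array's ratios near 0, so a count of carriers near 0 is not read as a trait of the family. Against the reference channel 29 of the 30 carriers had a mean within 0.5 of 0. The exception was Slc25a4, the ADP/ATP translocase that predominates in heart and skeletal muscle. Its log2 ratio was -1.49, -1.54, -1.59 and -1.72 on control arrays 1 to 4 and -1.66, -1.74, -1.68 and -1.87 on AhR arrays 1 to 4. All 8 arrays lay below the lowest value of every other measured carrier, and the normalized ratio put Cy3 3.17-fold above Cy5 on average. Before normalization the median signal of Slc25a4 was 231 units in Cy5 and 463 in Cy3. With no dye swap the fold is open to dye bias. Skeletal muscle markers were also brighter in Cy3: 4 of 7 matched markers were measured, with a median log2 ratio of -3.12, while Pvalb, Myh1 and Myh2 were not. Their part in the Slc25a4 ratio was not tested. The broadly expressed translocase Slc25a5 had a ratio of -0.17, -0.13, -0.061 and 0.25 on control arrays 1 to 4 and -0.17, 0.14, 0.12 and -0.47 on AhR arrays 1 to 4. Its arrays lay on both sides of 0 in each group. RefSeq lists 9 pseudogene copies of Slc25a5 and 8 of Slc25a39, so values of both genes are uncertain where a copy is transcribed; binding to copies was not tested.

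Slc25a30 had a Cy5 signal of 1013, 3697, 5156 and 3632 units on control arrays 1 to 4 and 3699, 2019, 7156 and 5771 on AhR arrays 1 to 4. Its Cy3 signal stayed between 1717 and 2152. The log2 ratio was -1.35, 0.69, 0.88 and 0.14 on control arrays 1 to 4 and 0.22, -1.23, 1.38 and 1.22 on AhR arrays 1 to 4. Control 1 and AhR 2 were low, control 4 and AhR 1 were intermediate, and the other 4 arrays were high. Low and high arrays thus occurred in both groups, which overlapped, although AhR 3 and AhR 4 lay above every control array. The range over the 8 arrays was 6.60-fold. Control 1 and AhR 2 shared slide row 1 with control 3 and AhR 4, which were high.

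The pooled SD of Slc25a30 within groups was 1.11 (log2, 4 arrays per group), against a median of 0.18 over the other 29 carriers. It ranked 9 among 10004 named genes measured, whose median was 0.17. In normalized signals of the same probe the SD was 1.08 in Cy5 and 0.08 in Cy3. The next carrier, Slc25a33, had an SD of 0.42. This wide spread was known when the family was chosen, so it is given as a description. The SD was 0.96 without control 1, 0.88 without AhR 2 and 0.52 without both, the last still above every other carrier on all arrays. It was 0.64 within slide row 2 and 1.65 within row 1.

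**Figure D2:**
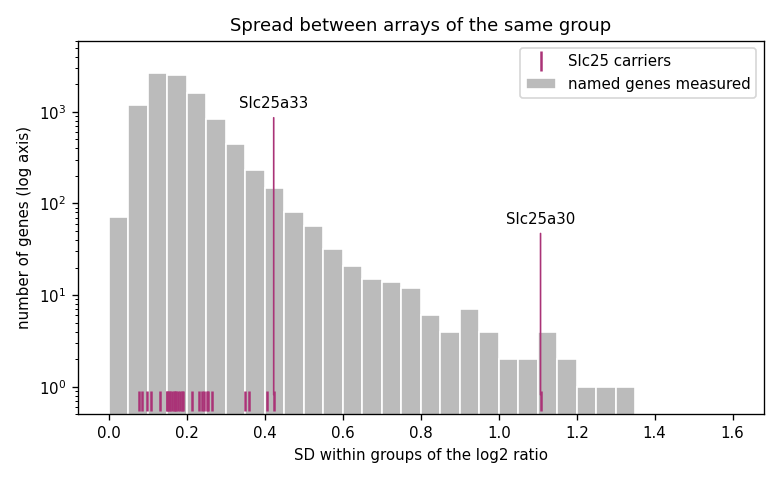
Distribution of the SD within groups of the log2 ratio over 10004 named genes (bars; log vertical axis), with 29 of the 30 measured carriers as ticks. Slc25a30 at 1.11 stands in the upper tail, apart from Slc25a33 at 0.42 and the rest of the family.

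Fgf21, a hormone that the liver secretes in fasting and other metabolic stress, followed Slc25a30 from array to array. Its ratio was -1.02, -0.50, -0.049 and -0.78 on control arrays 1 to 4 and -0.31, -0.92, 0.22 and 0.041 on AhR arrays 1 to 4. The same arrays, control 1 and AhR 2, were lowest for Fgf21, and AhR 3 and AhR 4 were highest for both genes. Fgf21 was dim: its mean normalized log2 signal was 7.57 in Cy5 and 7.99 in Cy3, against 17.21 in Cy5 for Alb. Over 8 arrays Pearson r was 0.91 (exact permutation p = 0.000918, adjusted p = 0.0110) and Spearman rho 0.98 (exact permutation p = 0.000397, adjusted p = 0.00476). The adjustment covered 12 measured genes of 14 listed: clock and fasting genes, and the carnitine carrier Slc25a20. The clock and fasting genes were listed because earlier results of these data showed their spread between the arrays. The adjusted p is therefore not that of a list chosen independently of these arrays. Without control 1 and AhR 2, the arrays farthest from the median of Slc25a30, r was 0.87 over the remaining 6. Taken as deviations from the group means r was 0.94. The relation kept r of 0.90 or 0.91 without control 3, AhR 3 or AhR 4, but its adjusted p was then 0.0976, 0.0976 and 0.0881 (exact permutation, 7 arrays). With Cy5 alone r was 0.85 (exact permutation, adjusted p = 0.0795). Each slide row held 4 arrays, too few for a correlation within a row.

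None of the other 11 genes passed for either measure. An unadjusted p of r under 0.05 (exact permutation) was found for 2 of the 12, against 8.46% of 9974 named genes other than carriers. The clock activator gene Bmal1 had r of 0.67 with Slc25a30 (rho 0.48, exact permutation p = 0.0714 and 0.243, adjusted p = 0.257 and 0.417), and r of 0.15 without the 2 lowest arrays. Dbp, a clock output gene, had r of -0.62 (rho -0.57, exact permutation p = 0.106 and 0.151, adjusted p = 0.257 and 0.342), and -0.48 without those arrays. Ppara, the nuclear receptor of the fasting response, had r of -0.72 (rho -0.67, exact permutation p = 0.0454 and 0.0831, adjusted p = 0.257 and 0.289), and -0.82 without them. Pdk4, a kinase that restrains pyruvate oxidation in fasting, had r of 0.57 (rho 0.69, exact permutation p = 0.110 and 0.0694, adjusted p = 0.257 and 0.289), and 0.68 without them. Angptl4, a fasting-induced lipase inhibitor, had r of 0.53 (rho 0.64, exact permutation p = 0.173 and 0.0962, adjusted p = 0.297 and 0.289), and 0.60 without them. For Cpt1a, which admits fatty acids to mitochondria, r was 0.06 (rho -0.05, exact permutation p = 0.889 and 0.935, adjusted p = 0.889 and 0.935), and -0.27 without them. The carnitine carrier Slc25a20 had an SD of only 0.06 and r of 0.36 (rho 0.24, exact permutation p = 0.381 and 0.582, adjusted p = 0.571 and 0.776), which was -0.33 without them. The remaining genes were Igfbp1 with r of -0.59 (rho -0.55), Nr1d1 with -0.30 (rho -0.33), Pck1 with -0.18 (rho -0.14) and G6pc1 with 0.22 (rho -0.17). Without the 2 lowest arrays their r was -0.36, -0.38, -0.38 and -0.15 in that order.

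Among the other 29 carriers, 0 passed with Slc25a30 after adjustment. An unadjusted p of r under 0.05 was found for 3 of the 29, against 8.46% of 9974 other named genes. That count lies near the share over the other genes and is not read as a result about the carriers. The 3 were Slc25a37, Slc25a33 and Slc25a32, each with r below 0. In all, r was below 0 for 23 carriers and above 0 for 6, against 50.2% of the other genes below 0. Each r uses the same 8 values of Slc25a30, so this count is not read as a result about the carriers. Without the 2 lowest arrays of Slc25a30 some signs turned. The r of Slc25a47 went from -0.52 to 0.23, and that of Slc25a25, the other way, from 0.17 to -0.73. Slc25a37, the mitochondrial iron importer of red cell precursors, had a ratio of 0.19, -0.24, 0.018 and -0.11 on control arrays 1 to 4 and -0.13, 0.076, -0.34 and -0.17 on AhR arrays 1 to 4. It was highest on control 1 and lowest on AhR 3, the extremes of Slc25a30 in reverse. Its Cy5 signal ran only from 144 to 235 units, over an array background of 71 to 76. Its r was -0.83 (rho -0.81, exact permutation p = 0.0118 and 0.0218, adjusted p = 0.232 and 0.533), and -0.44 without the 2 lowest arrays of Slc25a30. Slc25a32, which brings folate or flavin cofactors into mitochondria, had r of -0.76 (rho -0.76, exact permutation p = 0.0283 and 0.0368, adjusted p = 0.274 and 0.533), and -0.63 without them. Slc25a33 had r of -0.81 (rho -0.52, exact permutation p = 0.0160 and 0.197, adjusted p = 0.232 and 0.705), which was -0.33 without them.

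**Figure D3:**
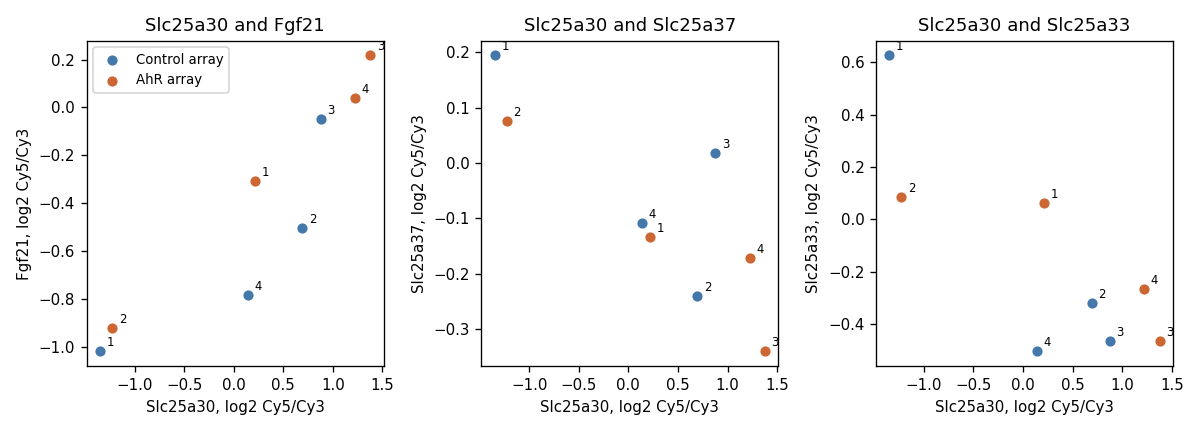
Log2 Cy5 over Cy3 of Slc25a30 (horizontal axes) against Fgf21, Slc25a37 and Slc25a33 (vertical axes), 1 point per array with its replicate number, control and AhR in different colours. Fgf21 is lowest on the 2 arrays lowest in Slc25a30 and highest on the 2 highest, while Slc25a37 and Slc25a33 are highest on control 1, where Slc25a30 is lowest.

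Markers of liver cell types, muscle and blood were set beside Slc25a30 in the same way after its values were seen, as 7 lists with at least 3 measured genes, together with array brightness and the Cy3 signal of its probe. None of these 9 relations passed after adjustment. The Kupffer cell list, with 7 of 7 markers measured, had r of 0.73 (rho 0.62, exact permutation p = 0.0343 and 0.115, adjusted p = 0.308 and 0.517), and 0.34 without the 2 lowest arrays. Its summed Cy5 signal ran from 25511 to 53745 units in control and from 33713 to 66953 in AhR, and none of its markers was below background. Its part in the spread of Slc25a30 was not tested. The hepatocyte list had r of -0.62 (rho -0.69, exact permutation p = 0.108 and 0.0694, adjusted p = 0.484 and 0.517), and -0.70 without those arrays. For array brightness r was -0.27 (rho 0.12, exact permutation p = 0.529 and 0.793, adjusted p = 0.665 and 0.882), and 0.13 without them.

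The genes most like Slc25a30 were sought among 9974 other named genes over the 8 arrays, as a description. Safb, Klrk1, Ptpro, Fxyd2 and Josd2 had the highest r, from 0.94 to 0.96. Stra6, Rnmt, Rab18, Hibadh and Hsd11b2 had the lowest, from -0.95 to -0.98. Hsd11b2, a glucocorticoid-inactivating dehydrogenase, ran from 0.92 on control 1 to -0.13 on AhR 3. Fxyd2, a regulator of the sodium pump, ran from -0.59 on control 1 to 0.46 on AhR 3. Stra6, a retinol transporter, covered only -0.06 to 0.23, so a strong correlation did not require a wide range. In all, 22 genes had r of 0.9 or more and 31 had r of -0.9 or less.

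After Slc25a30 the widest spreads among the carriers belonged to Slc25a33, Slc25a25, Slc25a16 and Slc25a47. The bases before the start of these 4 genes are shown from RefSeq (build GRCr8), because their SD was highest after that of Slc25a30. The table matched 32 of the 37 carriers, and Slc25a30 was not among them. Capitals mark CRE (TGACGTCA), E-box (CACGTG), GC-box (GGGCGG) and CCAAT-box (CCAAT) letters on either strand. None of these marked matches overlap.
Slc25a33, chr5:165502974-165503223, minus strand: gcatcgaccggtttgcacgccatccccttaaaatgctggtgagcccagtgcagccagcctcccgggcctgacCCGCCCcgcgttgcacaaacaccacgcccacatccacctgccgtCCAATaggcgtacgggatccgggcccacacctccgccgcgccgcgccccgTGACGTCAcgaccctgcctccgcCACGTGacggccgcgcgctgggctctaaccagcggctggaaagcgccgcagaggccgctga
Slc25a25, chr3:36116582-36116831, minus strand: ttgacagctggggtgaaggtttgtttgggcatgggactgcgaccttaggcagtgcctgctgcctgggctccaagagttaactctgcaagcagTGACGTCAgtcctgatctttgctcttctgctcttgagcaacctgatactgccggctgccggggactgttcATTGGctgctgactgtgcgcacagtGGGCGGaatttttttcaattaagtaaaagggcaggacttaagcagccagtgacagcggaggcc
Slc25a16, chr20:25715008-25715257, minus strand: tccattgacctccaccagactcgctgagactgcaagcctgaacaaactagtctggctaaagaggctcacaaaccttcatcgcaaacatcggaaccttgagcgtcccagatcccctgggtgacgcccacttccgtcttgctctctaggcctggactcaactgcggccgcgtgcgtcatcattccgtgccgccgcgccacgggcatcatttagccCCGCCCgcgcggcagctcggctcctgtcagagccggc
Slc25a47, chr6:133531491-133531740, plus strand: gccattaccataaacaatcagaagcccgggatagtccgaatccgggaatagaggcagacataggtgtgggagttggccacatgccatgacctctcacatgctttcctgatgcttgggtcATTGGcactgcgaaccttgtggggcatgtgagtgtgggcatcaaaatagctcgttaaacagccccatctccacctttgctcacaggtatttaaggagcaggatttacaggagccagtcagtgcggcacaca
Among the 32 carriers, the CRE letters, which cAMP-responsive factors can bind, were found before Slc25a25 and Slc25a33. That is 6.25% of them, against 1.59% of 33469 windows of the same length. The E-box, a site read by clock and MYC-type factors, stood before Slc25a2, Slc25a33 and Slc25a51, or 9.38% against 5.59%. GC-box letters stood before 62.5% of the carriers and 30.5% of all windows, and CCAAT before 59.4% and 34%. The windows were not limited to protein-coding genes, as the carriers are, so these shares do not come from like sets and are not read as a trait of the family. The D-box letters TTATGNAA were found before Slc25a15 alone, or 3.12% against 3.28%. The PPRE, a direct repeat of AGGTCA with a single base between, was found before 0 of the 32 and 0.0508% of all windows. AGGTCA on its own, counted wherever it occurred, the repeat included, stood before 18.8% and 14.1%. A match is a description of letters and not a bound site.

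Slc25a33, a carrier of pyrimidine nucleotides for mitochondrial DNA and RNA synthesis, had a ratio of 0.63, -0.32, -0.47 and -0.51 on control arrays 1 to 4 and 0.063, 0.086, -0.47 and -0.27 on AhR arrays 1 to 4. Control 1 was the highest of the 8 arrays, and every AhR array lay within the control range. A second probe of the gene had an SD of 0.29 against 0.42, and r between the probes was 0.47 over the 8 arrays. Between AhR and control the second probe differed by 0.26 (SE 0.17) and the first by 0.020 (SE 0.24). Slc25a25, an ATP-Mg/phosphate carrier that adjusts the matrix pool of adenine nucleotides, had a ratio of -0.83, 0.27, -0.12 and -0.12 on control arrays 1 to 4 and 0.21, -0.100, -0.47 and -0.53 on AhR arrays 1 to 4. It was lowest on control 1 and highest on control 2. Slc25a24 of the same group had a smaller spread, at -0.37, -0.47, -0.32 and -0.56 on control arrays 1 to 4 and -0.46, -0.41, -0.40 and -0.52 on AhR arrays 1 to 4, with all arrays below 0. Its Cy5 signal ran from 197 to 354 units, against 10407 to 28477 for Slc25a25. The spreads of these genes were thus not read at like brightness. A second probe of Slc25a24 was not well above background on enough arrays.

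Slc25a47, a carrier largely restricted to liver, had a ratio of 0.54, -0.35, 0.27 and -0.11 on control arrays 1 to 4 and 0.29, 0.67, -0.022 and 0.51 on AhR arrays 1 to 4. Its Cy5 signal ran from 11497 to 43899 units between arrays. Control 2 was lowest and AhR 2 highest, and both groups covered positive and negative ratios. In each group the arrays of slide row 1 lay above those of slide row 2. Slc25a16, linked to coenzyme A in the matrix, had a ratio of 0.33, 0.29, 0.0099 and -0.42 on control arrays 1 to 4 and -0.34, -0.31, -0.63 and 0.26 on AhR arrays 1 to 4. Control 1, control 2 and AhR 4 were high, and control 4 lay among the low AhR arrays. A second probe of Slc25a16 had a mean of 0.34 against -0.10 for the first, and r between them was -0.18 over the 8 arrays, so the probes of this gene disagreed. Between AhR and control the second probe differed by -0.13 (SE 0.16) and the first by -0.31 (SE 0.21). Slc25a42, which carries coenzyme A and adenine nucleotides, had a ratio of 0.46, -0.095, 0.080 and 0.097 on control arrays 1 to 4 and 0.59, 0.30, 0.12 and 0.37 on AhR arrays 1 to 4. A single array, control 2, lay below 0, and the groups overlapped. A second probe of Slc25a42 averaged -0.05 against 0.24, with r of 0.22 between the probes. It differed between AhR and control by 0.089 (SE 0.10), and the first probe by 0.21 (SE 0.14). Slc25a17, the peroxisomal member of the family, had a ratio of 0.060, -0.35, -0.45 and -0.42 on control arrays 1 to 4 and -0.64, -0.40, -0.62 and -0.069 on AhR arrays 1 to 4. Control 1 and AhR 4 stood above the other arrays.

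Carriers of carboxylates, phosphate, glutamate and folate or flavin cofactors followed. Slc25a1, the citrate carrier that feeds cytosolic acetyl-CoA to fatty acid synthesis, had a ratio of 0.057, -0.13, 0.43 and -0.14 on control arrays 1 to 4 and 0.32, 0.27, 0.10 and -0.22 on AhR arrays 1 to 4. Slc25a10, the dicarboxylate carrier, had a ratio of -0.066, -0.16, 0.26 and 0.060 on control arrays 1 to 4 and 0.57, 0.23, 0.084 and -0.11 on AhR arrays 1 to 4. For both genes control 3 was the highest control array and AhR 1 the highest AhR array. Slc25a11, the 2-oxoglutarate carrier of the malate-aspartate shuttle, had a ratio of -0.23, -0.24, -0.038 and -0.011 on control arrays 1 to 4 and 0.23, -0.065, 0.11 and -0.041 on AhR arrays 1 to 4. AhR 1 was highest, and AhR 2 and AhR 4 lay within the control range. Slc25a3, which brings phosphate in for ATP synthesis, had a ratio of 0.16, -0.012, -0.15 and -0.40 on control arrays 1 to 4 and -0.15, -0.21, -0.23 and -0.092 on AhR arrays 1 to 4. AhR arrays of Slc25a3 all lay below 0, within the range of the control arrays. Slc25a21, which carries oxodicarboxylates from lysine and tryptophan breakdown, had a ratio of 0.12, -0.063, -0.25 and -0.37 on control arrays 1 to 4 and -0.14, -0.34, -0.44 and -0.50 on AhR arrays 1 to 4. A single array, control 1, lay above 0. Slc25a22, a glutamate carrier, had a ratio of 0.27, 0.21, -0.092 and 0.082 on control arrays 1 to 4 and 0.20, -0.040, -0.28 and 0.056 on AhR arrays 1 to 4. Control 1 was highest and AhR 3 lowest. Slc25a32 had a ratio of 0.25, 0.16, -0.15 and 0.14 on control arrays 1 to 4 and 0.34, 0.63, 0.098 and -0.15 on AhR arrays 1 to 4, with AhR 2 highest. Control 1 was the highest array for 11 of the 30 carriers and the lowest for 5.

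A further 11 measured carriers had mean ratios from -0.09 to 0.16 and SDs within groups from 0.08 to 0.23. Of these, Slc25a51 carries NAD, Slc25a38 glycine for heme synthesis, Slc25a39 glutathione and Slc25a44 branched-chain amino acids. Slc25a28 is the iron importer of cells outside the red lineage, Slc25a29 carries basic amino acids, Slc25a23 is another ATP-Mg/phosphate carrier, and Slc25a14 is related to the uncoupling proteins. Slc25a46 lies in the outer membrane and takes part in mitochondrial dynamics. The last of the 11 were Slc25a34 and Slc25a35. Single arrays of these genes lay between -0.34 and 0.46.

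The comparison of AhR with control asked whether developmental exposure left a difference in adult liver. No carrier passed the test: limma called 0 of 30 carriers at an adjusted p of 0.05, and 0% of 17859 probes. At an unadjusted p under 0.05 it gave 0 of 30 carriers, against 1.61% of all probes tested. The groups did not overlap for 0 of 30, against 1.19% of all probes. Means were higher in AhR for 15 carriers and lower for 15, against 47.7% of all probes higher. The median difference, AhR minus control, was 0.0027 over the carriers and -0.0058 over all probes. With median centring in place of loess 23 carriers were higher and 7 lower, but then 70.4% of all probes were higher too and their median difference was 0.06. With Cy5 alone 19 were higher and 11 lower, against 49.5% of all probes higher.

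The mean of Slc25a30 was 0.09 (SD 1.01) over the 4 control arrays and 0.40 (SD 1.20) over the 4 AhR arrays. The difference was 0.31 (SE 0.59, 95% interval -1.0 to 1.62; limma adjusted p = 1.00; exact two-sided permutation p = 0.629, where 0.0286 is the smallest possible). It was -0.17 without control 1, -0.02 without AhR 3, 0.03 without AhR 4, 0.51 without control 2, 0.57 without control 3 and 0.85 without AhR 2. The sign of the difference thus turned with single arrays of either group. Within slide row 1 the difference was 0.23 (SE 0.88) and within row 2 0.38 (SE 0.36).

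For the other carriers the intervals were narrower, and 27 of the 30 stayed within 1.5-fold in either direction. Slc25a11 had the smallest p, with means of -0.13 ± 0.12 over control arrays and 0.060 ± 0.14 over AhR arrays (SD, n = 4 per group) and a difference of 0.19 (SE 0.10) (limma unadjusted p = 0.0960, adjusted p = 1.00). The difference was -0.31 (SE 0.21) for Slc25a16, 0.28 (SE 0.20) for Slc25a47, -0.22 (SE 0.13) for Slc25a21 and 0.21 (SE 0.14) for Slc25a42. Leaving out single arrays, it ranged from -0.48 to -0.18 for Slc25a16, 0.13 to 0.43 for Slc25a47, -0.29 to -0.13 for Slc25a21 and 0.13 to 0.32 for Slc25a42. With slide row as a block the difference of Slc25a47 was 0.28 (SE 0.12, limma unadjusted p = 0.0434, adjusted p = 0.9999). Slc25a4 differed by -0.15 (SE 0.093), and all 4 AhR arrays lay below 3 of the 4 control arrays. The differences were 0.17 (SE 0.15) for Slc25a10, -0.14 (SE 0.15) for Slc25a17, -0.14 (SE 0.12) for Slc25a22 and 0.13 (SE 0.16) for Slc25a32. Slc25a1 differed by 0.062 (SE 0.16), Slc25a3 by -0.070 (SE 0.12), Slc25a5 by -0.066 (SE 0.15) and Slc25a33 by 0.020 (SE 0.24). Slc25a25 differed by -0.025 (SE 0.23) and Slc25a24 by -0.015 (SE 0.090). These 11 further carriers lay between -0.13 and 0.19.

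Slc25a37 differed by -0.11 (SE 0.12). Red cell markers also had lower means in AhR, for 5 of 5 measured of 6 matched (median difference -0.35, 0 past the test). Epb42 was not well above background on enough arrays. Over all probes 47.7% were higher in AhR. Means were higher in AhR for 5 of 5 endothelial, 4 of 4 cholangiocyte, 6 of 7 Kupffer cell and 5 of 6 stellate markers. They were lower for 4 of 4 skeletal muscle and 6 of 10 hepatocyte markers, and none of these genes passed the test. Control 2 was the highest control array for all 5 red cell markers, and it was the lowest control array for Slc25a37. Leaving out single arrays the marker median was -0.13 without control 2, -0.17 without AhR 3 and -0.54 without AhR 2, with all 5 means lower in AhR each time. Their summed Cy5 signal ran from 335239 to 488029 units in control and from 248334 to 581134 in AhR. Their part in the Slc25a37 difference was not tested, and in bulk liver fewer cells of a type and less RNA per cell cannot be told apart.

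**Figure D4:**
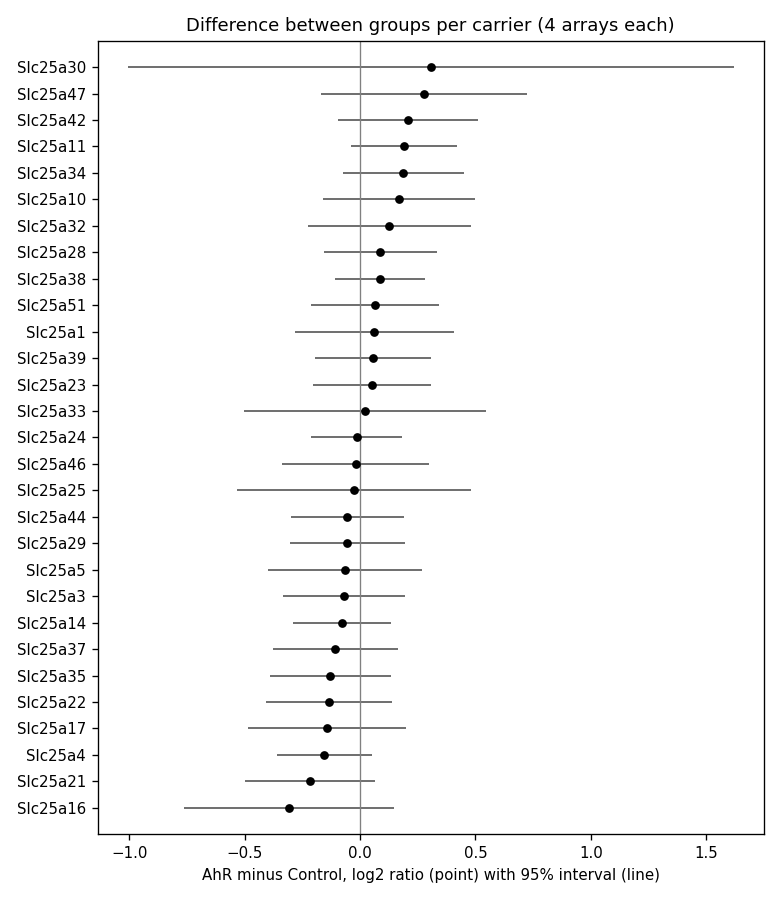
Difference between AhR and control (horizontal axis, log2 ratio) for 29 of the 30 measured carriers (rows, ordered by difference), points with 95% intervals from limma, 4 arrays per group. Every interval shown includes 0, and that of Slc25a30, from -1.0 to 1.62, is the widest.

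Other proteins of inner and outer membrane transport, and of the route that imports the carriers themselves, were read from a list of 36 genes. Of these 33 were matched and 31 measured. Their means were higher in AhR for 14 and lower for 17, with a median difference of -0.03 and 0 past the test. Tspo, the outer membrane translocator protein, differed by 0.16 and Abcb10, an inner membrane transporter of heme synthesis, by -0.16, the ends of the list. Ucp2, an uncoupling protein of the same family under another symbol, differed by 0.12, while Ucp1 and Ucp3 were not well above background on enough arrays. The pyruvate carrier subunits Mpc1 and Mpc2 differed by -0.092 and 0.14. Tomm70, the outer membrane receptor for carrier precursors, differed by 0.13. None of these passed.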

How the data were processed

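Dual-channel Agilent arrays of 4 control and 4 AhR liver pools were used, all on 1 slide. Spot intensities in each channel were deposited as scanned; per the file headers, Agilent's Feature Extraction, version 10.7.3.1, had read the spots. The authors' deposited value table holds log2 ratios of Cy5 over Cy3 (r of 0.976 to 0.985 with the ratios used here, column medians of 0.0057 to 0.017), whose exact dye correction is not given in the sources used here.

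From 62976 spots per array, 4259 control spots were left out. Median intensities were background-corrected (normexp, offset 50), loess-normalized within arrays and averaged per probe without flagged spots, in limma 3.58.1 under R 4.3.3. Probes with Cy5 well above background on at least 4 arrays were kept, 17859 of 30367. RefSeq names matched 18004 probes. Groups were compared with lmFit and eBayes, with Benjamini-Hochberg adjustment over all kept probes. The script was tested on simulated data. Correlations used exact permutation tests, two-sided, adjusted within each family of relations. The number of arrays limits the precision.

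The members and lists were chosen with earlier results of these data known. Values per array are given for Slc25a30, for the 5 carriers of largest SD, for the 4 of highest and the 4 of lowest mean ratio, and for carriers of main liver roles. Slc25a11 (lowest p) and Slc25a37 (strongest correlation) were added after their values were seen. Alternatives changed the background correction, normalization, filter, blocks, probe choice and arrays used. Same-numbered arrays did not deviate together (r of -0.37 to 0.05), so numbers were not used as pairs. The values of 1 measured carrier are not reported here, though it is in the counts over all 30.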

Additional observations from a re-analysis of the deposited data

Results flagged for a closer look

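Slc25a33 on control array 1 had a log2 ratio of 0.63, while the other control arrays lay between -0.51 and -0.32. The gap to the nearest array was 0.8371 of the group's whole range, above Dixon's 95% critical value for 4 samples. It was the single such array among 60 groups of 4 examined (30 carriers in control and in AhR), and chance alone gives about 1 in 20. Control 1 was also the lowest array for Slc25a30 and the highest for 11 of the 30 carriers. The part of that array in the Slc25a33 value was not tested.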

How the results depend on the processing

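The count of probes, of carriers and of inner membrane transport genes past an adjusted p of 0.05 was 0 under every alternative run for it, the replicate block included. With the replicate block the difference of Slc25a30 was 0.31 (SE 0.49), and the block changed no call. The median difference over the carriers was 0.10 with median centring. The SD of Slc25a30 was 0.64 within slide row 2, 0.52 without control 1 and AhR 2 (an alternative added after seeing the data), and 0.88 to 1.21 leaving out single arrays. Of the genes correlated with Slc25a30, 1 passed in the main analysis, 0 with Cy5 alone, and 0 to 1 leaving out single arrays. Leaving out arrays, other background corrections and the value table for the correlations, leaving out arrays for the red cell markers, and all alternatives for the inner membrane list, were also added after seeing the data.

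Differences between groups, none of which passed the test, turned sign for 9 named carriers. With Agilent processed signals they were 0.00016 for Slc25a25 and 0.044 for Slc25a24. With median centring they were 0.053 for Slc25a25, 0.076 for Slc25a24, 0.015 for Slc25a3 and 0.016 for Slc25a5. With Cy5 alone they were 0.019 for Slc25a25, 0.098 for Slc25a24 and 0.0070 for Slc25a3. Within slide row 1 they were -0.17 for Slc25a33, 0.16 for Slc25a25, -0.22 for Slc25a1 and -0.038 for Slc25a10, and within row 2 they were 0.087 for Slc25a24 and 0.015 for Slc25a3. Leaving out single arrays they ranged from -0.17 to 0.85 for Slc25a30, -0.093 to 0.28 for Slc25a33, -0.23 to 0.13 for Slc25a25, -0.0063 to 0.25 for Slc25a32 and -0.059 to 0.021 for Slc25a24. For Slc25a1 they ranged from -0.0047 to 0.19, for Slc25a3 from -0.17 to 0.017 and for Slc25a5 from -0.14 to 0.059. Among named carriers that kept their sign, they ranged from -0.26 to -0.026 for Slc25a17, -0.21 to -0.049 for Slc25a22 and -0.18 to -0.032 for Slc25a37. The cause was not tested.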
